A study of Homo sapiens with 14 samples.

Results

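The core genes of AKT and mTOR signaling were followed in lung adenocarcinoma cells treated with an aurora kinase inhibitor. The 9 genes were *AKT1*, *AKT2*, *MTOR*, *RPTOR*, *RICTOR*, *RPS6KB1*, *EIF4EBP1*, *TSC1* and *TSC2*. They were chosen by name for their place in the pathway, and all 9 were found by gene symbol among the 26760 gene entries of each count table. A549 and H1792 are established human lung adenocarcinoma cell lines, and each stands for a single cell line grown in culture. A549 cells were kept in DMEM and H1792 cells in RPMI medium, both with 10% FBS, and received either the solvent DMSO or 0.1 µM AMG900, an inhibitor of all aurora kinases, for 48 h. There were 4 DMSO and 4 AMG900 libraries of A549 and 3 DMSO and 3 AMG900 libraries of H1792. The study measured the phosphorylated proteins of this pathway by other means, and the counts described here are of mRNA only.

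AKT kinases are activated at the plasma membrane by lipids that PI3K makes in response to growth factors. Active AKT phosphorylates TSC2, which with TSC1 keeps the small GTPase RHEB inactive, and RHEB in turn switches on mTOR complex 1. In that complex RPTOR presents substrates to the mTOR kinase, among them the S6 kinase encoded by *RPS6KB1* and the translation repressor 4E-BP1 encoded by *EIF4EBP1*. In mTOR complex 2 the same kinase works with RICTOR and phosphorylates AKT. The pathway is controlled mainly by phosphorylation, and it promotes protein synthesis and cell growth.

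Total counts per library were between 4254644 and 18962883 in A549 and between 42760874 and 79902934 in H1792. The library of A549 DMSO replicate 1 was the smallest and stood apart from the other DMSO libraries, so values that rest on it are given with and without it. Replicates varied with a biological coefficient of variation of 12.8% for A549 and 9.6% for H1792. Nothing in the labels says how the replicate cultures were separated, so p-values measure the spread between these libraries. The labels' treatment protocol gives fewer replicates per treatment than there are libraries of A549. A lower share of cells that express a gene and less of its RNA per cell cannot be told apart in these bulk cultures. Among epithelial markers the keratins *KRT8* and *KRT18* carried most of the signal, with a sum over the 5 listed markers of 4230 to 7060 CPM (counts-per-million, scaled by TMM factors) in A549 and 674 to 852 CPM in H1792. *KRT19* was at 5.92 to 10.5 CPM in H1792, *EPCAM* was at 0.54 CPM or less in A549 and at 3.34 to 3.93 CPM in H1792, and *CDH1* was at 1.07 CPM or less in H1792. The leukocyte gene *PTPRC* was at 0.0942 CPM or less in every library, but *CD68* of the same list was detected and moved with treatment, from 55 to 80.7 CPM with DMSO to 152 to 169 CPM with AMG900 in A549 and from 99.8 to 115 CPM to 171 to 197 CPM in H1792. *CDH1* in A549 was at 14.8 to 27.2 CPM with DMSO and 39.1 to 45 CPM with AMG900. *COL1A1*, of the fibroblast list, was at 82 to 113 CPM with DMSO and 38.5 to 48.7 CPM with AMG900 in A549, and at 2080 to 2710 CPM and 1560 to 1600 CPM in H1792. *COL1A2* in H1792 was at 1260 to 1570 CPM and 920 to 1000 CPM. The whole fibroblast list summed to 82.9 to 114 CPM with DMSO and 39.6 to 50.2 CPM with AMG900 in A549. In H1792 its sum was 3380 to 4320 CPM and 2560 to 2640 CPM, above that of the epithelial list. The part of these markers in the results was not tested. Over all genes, log2 fold changes were higher where transcripts had a higher GC content. Spearman's rho was 0.499 in A549 (n = 12791 genes) and 0.481 in H1792 (n = 14376 genes). Each change of the 9 genes with AMG900 is therefore also given with a correction for GC content. Changes of the other pathway genes are given without it, except where stated.

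Few of the 9 mRNAs passed the test with AMG900, and without a GC correction the change furthest from 0 was that of *RICTOR* in H1792. In A549, 1 of the 9 genes passed the FDR threshold of 0.01, where 35% of all 13174 genes tested did. That gene was *RPS6KB1*, which was lower with AMG900. In H1792, 2 of the 9 passed, where 35.1% of all 15017 genes tested did. *RICTOR* was lower and *EIF4EBP1* was higher. The median log2 fold change of the 9 genes was -0.11 in A549 and 0.06 in H1792, and that of all genes tested was -0.01 in A549 and 0.01 in H1792. All 9 genes passed the filter on low counts in both lines. Every adjusted p below comes from edgeR (quasi-likelihood test) and is adjusted over all genes tested by the method of Benjamini and Hochberg.

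**Figure D1:**
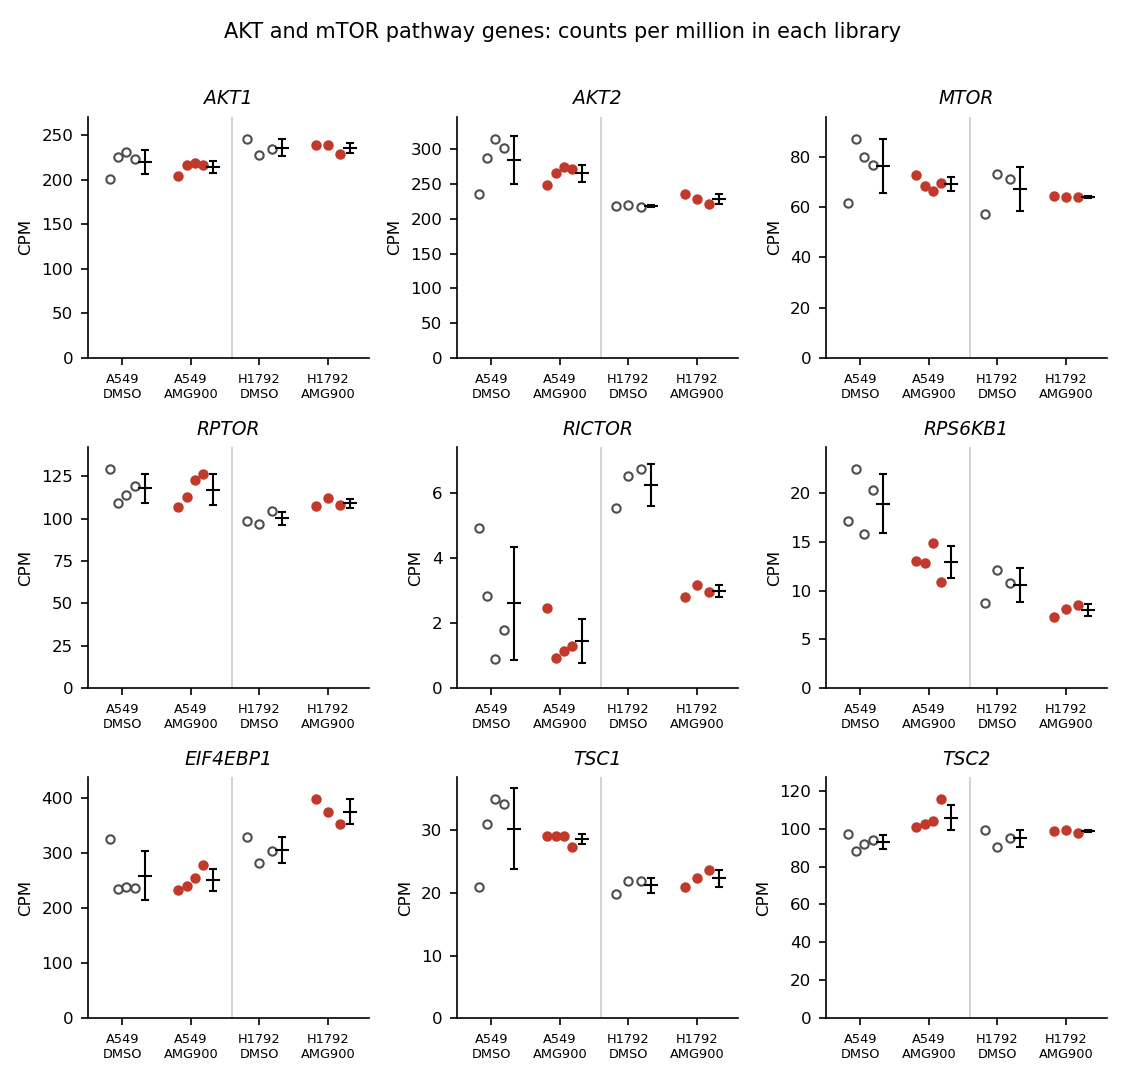
CPM of each of the 9 genes (vertical axes, from 0) in every library of the 4 groups, with open points for DMSO, filled points for AMG900 and bars for the mean ± SD; CPM were scaled within each line by TMM factors. *RPS6KB1* in A549 and *RICTOR*, *RPS6KB1* and *EIF4EBP1* in H1792 show DMSO and AMG900 libraries that do not overlap, while *AKT1* and *MTOR* overlap in both lines.

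Neither AKT kinase passed the test in either line. *AKT1*, a widely expressed AKT kinase, was at 200.5, 225, 231 and 223 CPM in the A549 DMSO libraries and at 204, 217, 219 and 217 CPM with AMG900. The groups overlapped, and the log2 fold change was -0.04 ± 0.07 (SE, n = 4 and 4), with a 95% interval of -0.18 to 0.10 and an edgeR adjusted p of 0.646. In H1792 it was at 246, 227 and 234 CPM with DMSO and at 239, 239 and 229 CPM with AMG900, which differed by less than the spread between replicates (log2 fold change -0.00071, 95% interval -0.12 to 0.11, n = 3 and 3, edgeR adjusted p = 0.993). *AKT2*, the isoform best known for its part in insulin-stimulated glucose uptake, was at 235, 288, 315 and 302 CPM in A549 with DMSO and at 249, 266, 275 and 272 CPM with AMG900. DMSO replicate 1 was the lowest of the 8 libraries and the other 3 DMSO libraries were the highest. The log2 fold change was -0.11 ± 0.08 (edgeR adjusted p = 0.319, n = 4 and 4), and without DMSO replicate 1 it was -0.18 ± 0.06. In H1792, *AKT2* was at 218, 220 and 218 CPM with DMSO and at 237, 228 and 222 CPM with AMG900. The groups did not overlap, but the log2 fold change of 0.07 ± 0.05 did not pass the test (edgeR adjusted p = 0.273, n = 3 and 3). With the GC correction both AKT genes passed the threshold as lower in both lines, at -0.44 for *AKT1* and -0.42 for *AKT2* in A549 and at -0.33 and -0.21 in H1792.

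*MTOR*, the kinase shared by both complexes, did not pass the test in either line. It was at 61.6, 87.0, 79.8 and 76.7 CPM in A549 with DMSO and at 72.9, 68.4, 66.1 and 69.4 CPM with AMG900. DMSO replicate 1 was again below all other libraries, and the other 3 DMSO libraries were above all 4 AMG900 libraries. The log2 fold change was -0.15 ± 0.10 with all libraries (edgeR adjusted p = 0.206, n = 4 and 4) and -0.23 ± 0.07 without that library. In H1792 it was at 57.1, 73.0 and 71.2 CPM with DMSO and at 64.2, 63.8 and 63.7 CPM with AMG900. Here DMSO replicate 1 was the lowest and the other DMSO libraries the highest, so that the log2 fold change of -0.07 ± 0.09 (edgeR adjusted p = 0.533, n = 3 and 3) became -0.20 ± 0.05 without DMSO replicate 1, a change that passed the threshold. When GC content was corrected for, *MTOR* was at -0.27 in A549 and at -0.20 in H1792, and neither passed.

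Of the scaffold subunits of the mTOR complexes, *RICTOR* passed the test in H1792 and *RPTOR* in neither line. *RPTOR*, of mTOR complex 1, was at 129, 109, 114 and 119 CPM in A549 with DMSO and at 107, 113, 123 and 126 CPM with AMG900, with groups that overlapped (log2 fold change -0.0052, 95% interval -0.18 to 0.17, edgeR adjusted p = 0.964, n = 4 and 4). In H1792 it was at 98.8, 97.04 and 105 CPM with DMSO and at 107, 112 and 108 CPM with AMG900. All AMG900 libraries were above all DMSO libraries, by a log2 fold change of 0.12 ± 0.05 that did not pass the threshold (edgeR adjusted p = 0.0771, n = 3 and 3). Corrected for GC content, the change was -0.38 in A549, which passed, and -0.19 in H1792, which did not.

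*RICTOR*, of mTOR complex 2, lies at chr5:38938022-39074504 on the minus strand (GRCh37). It was counted 362, 318 and 296 times in the H1792 DMSO libraries and 218, 159 and 171 times in the AMG900 libraries. Scaled to CPM these were 5.53, 6.53 and 6.75 with DMSO and 2.80, 3.18 and 2.96 with AMG900. Every AMG900 library was below every DMSO library. *RICTOR* fell by 52.5% in the fit, a log2 fold change of -1.07 ± 0.13 (95% interval -1.36 to -0.79, n = 3 and 3, edgeR adjusted p = 8.11e-05), and it passed the threshold under all 16 alternatives. After GC correction, it fell by 0.49 on the log2 scale. In A549 the gene had few counts, with 21, 31, 12 and 30 counts in the DMSO libraries and 26, 13, 21 and 20 counts with AMG900. These were 4.94, 2.82, 0.897 and 1.78 CPM with DMSO and 2.46, 0.913, 1.13 and 1.29 CPM with AMG900, with groups that overlapped. The log2 fold change of -0.73 ± 0.47 had a 95% interval of -1.73 to 0.28 (n = 4 and 4, edgeR adjusted p = 0.217), which also holds the value of H1792. Without DMSO replicate 1, the highest of the 8 libraries, it was -0.36, and over all fits that left out 1 library it was between -1.07 and -0.36. Corrected for GC, it was -0.21 ± 0.45. None of these passed, and the interval is too wide to show or to exclude a change of the size seen in H1792. Exons of *OSMR* on the opposite strand overlap 229 bases of its exons, or 1.70% of their length, and the strand setting of the counting is not given in the sources used here.

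Of the substrates of mTOR complex 1, *RPS6KB1* was lower in A549 and *EIF4EBP1* was higher in H1792. *RPS6KB1*, which encodes the S6 kinase, lies at chr17:57970407-58027935 on the plus strand (GRCh37). In A549 it was at 17.2, 22.5, 15.9 and 20.3 CPM with DMSO and at 13.0, 12.9, 14.9 and 10.9 CPM with AMG900. All AMG900 libraries were below all DMSO libraries, as for 43.9% of all genes compared between these groups in either direction. *RPS6KB1* fell by 32.1%, with a log2 fold change of -0.56 ± 0.15 (95% interval -0.87 to -0.24, n = 4 and 4, edgeR adjusted p = 0.00602), and the exact two-sided permutation test gave p = 0.0286, the smallest that 4 against 4 libraries allow. The call was lost in each fit without AMG900 replicate 1, 2 or 4 or DMSO replicate 2 or 4. Log2 fold changes there were between -0.56 and -0.47, with edgeR adjusted p of at most 0.0256. In H1792 *RPS6KB1* was at 8.78, 12.2 and 10.8 CPM with DMSO and at 7.33, 8.17 and 8.58 CPM with AMG900. The groups did not overlap here either, as for 59.7% of all genes in H1792. The log2 fold change of -0.40 ± 0.13 (n = 3 and 3) did not pass the threshold of 0.01 (edgeR adjusted p = 0.0235), but it passed without DMSO replicate 1, at -0.54. With the GC correction the change was -0.07 ± 0.13 in A549 and 0.14 ± 0.09 in H1792, and neither passed.

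*EIF4EBP1* encodes 4E-BP1, which binds the cap-binding protein eIF4E until mTOR complex 1 phosphorylates it. In H1792 it was at 329, 282 and 303 CPM with DMSO and at 397, 375 and 353 CPM with AMG900. All AMG900 libraries were above all DMSO libraries, and the gene was 23.1% higher in the fit (log2 fold change 0.30 ± 0.07, 95% interval 0.15 to 0.45, n = 3 and 3, edgeR adjusted p = 0.00407). The call was lost without AMG900 replicate 1, AMG900 replicate 2 or DMSO replicate 3, with log2 fold changes between 0.26 and 0.30. Corrected for GC content, it was -0.04 ± 0.04 and not called. In A549 *EIF4EBP1* was at 326, 234, 239 and 236 CPM with DMSO and at 234, 239, 254 and 278 CPM with AMG900. DMSO replicate 1 was above all other A549 libraries, and the log2 fold change was -0.04 ± 0.10 with it (edgeR adjusted p = 0.797, n = 4 and 4) and 0.09 ± 0.06 without it. After GC correction, the A549 change was -0.46 ± 0.07, which passed.

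Neither subunit of the TSC complex, which restrains RHEB, passed the test. *TSC1*, which stabilises the complex, was at 20.9, 31.0, 34.9 and 34.1 CPM in A549 with DMSO and at 29.0, 29.1, 29.0 and 27.3 CPM with AMG900. DMSO replicate 1 was the lowest library and the other DMSO libraries were above all AMG900 libraries (log2 fold change -0.11 ± 0.13, edgeR adjusted p = 0.521, n = 4 and 4, and -0.23 ± 0.10 without DMSO replicate 1). In H1792 it was between 19.8 and 21.9 CPM with DMSO and between 20.9 and 23.6 CPM with AMG900, with groups that overlapped (0.07 ± 0.08, edgeR adjusted p = 0.466, n = 3 and 3). Corrected for GC, *TSC1* was at -0.09 in A549 and 0.07 in H1792, and neither passed. *TSC2*, which carries the GTPase-activating domain, lies at chr16:2097968-2139492 on the plus strand (GRCh37). It was at 97.3, 88.3, 91.7 and 94.2 CPM in A549 with DMSO and at 101, 103, 104 and 116 CPM with AMG900. All AMG900 libraries were above all DMSO libraries, and the exact two-sided permutation test gave p = 0.0286. The log2 fold change of 0.19 ± 0.07 (95% interval 0.03 to 0.35, n = 4 and 4) was short of the threshold of 0.01 (edgeR adjusted p = 0.0465). In H1792 *TSC2* was at 99.3, 90.1 and 95.1 CPM with DMSO and at 98.7, 99.3 and 98.0 CPM with AMG900, and the groups overlapped (0.06 ± 0.05, edgeR adjusted p = 0.417, n = 3 and 3). When GC content was corrected for, *TSC2* was at -0.20 in A549, which did not pass, and at -0.26 in H1792, which did. Exons of *PKD1* on the opposite strand cover 3.82% of the exon length of *TSC2*, and reads of the pair cannot be told apart without the strand of counting.

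Counted over the 9 genes, libraries did not overlap between treatments for 2 in A549 (*RPS6KB1* lower, *TSC2* higher) and for 5 in H1792 (*RICTOR* and *RPS6KB1* lower, *AKT2*, *RPTOR* and *EIF4EBP1* higher). These are 2 of 9 beside 43.9% of all genes in A549 (21.9% higher and 22% lower) and 5 of 9 beside 59.7% in H1792 (30.1% higher and 29.6% lower). In H1792 the exact test cannot go below p = 0.1 with 3 against 3 libraries, and each of the 5 genes had that value.

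**Figure D2:**
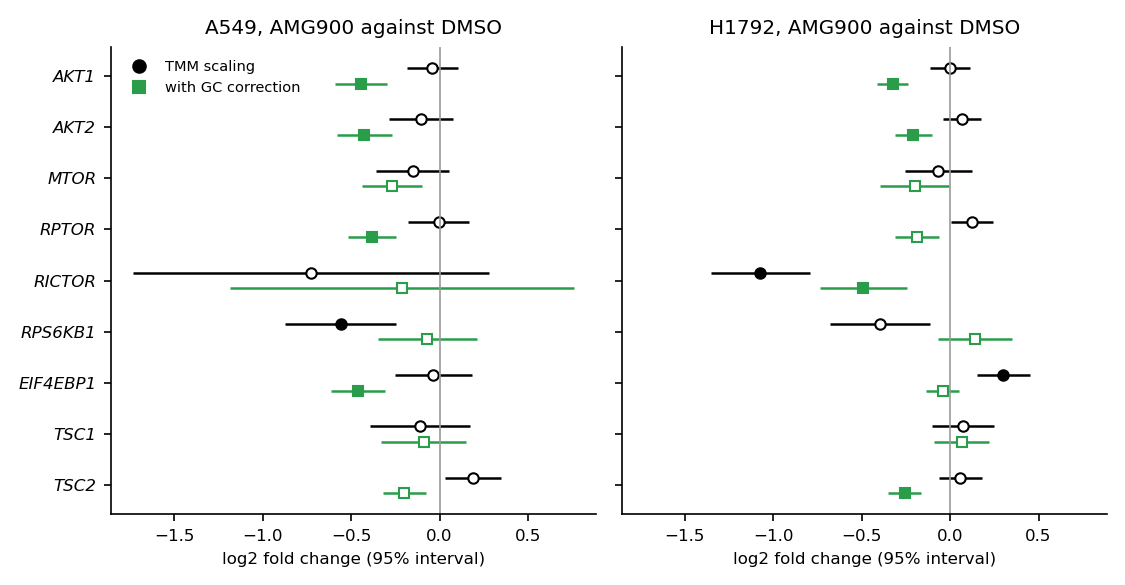
Log2 fold change of each gene with AMG900 against DMSO (horizontal axis, points) and its 95% interval (lines) in A549 (left) and H1792 (right), with black circles for TMM scaling alone and green squares with the GC correction; filled symbols passed the FDR threshold of 0.01. The interval of *RICTOR* in A549, from -1.73 to 0.28, is the widest, and with the GC correction the 5 genes of highest GC content move to lower values in both lines.

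The GC content of the transcripts divides the 9 genes. *EIF4EBP1* (62.9%), *AKT1* (61.2%), *TSC2* (60.4%), *RPTOR* (60.05%) and *AKT2* (58.0%) lie high, *MTOR* (52.3%) and *TSC1* (48.3%) in the middle, and *RPS6KB1* (37.2%) and *RICTOR* (36.5%) low. In A549 the median log2 fold change of all genes with under 40% GC was -0.45 (n = 1957 genes) and that of genes with 60% or more was 0.37 (n = 2147 genes). In H1792 the medians were -0.48 (n = 2215 genes) and 0.23 (n = 2455 genes). Set beside them, *RPS6KB1* was at -0.56 in A549 and -0.40 in H1792, between the quartiles of genes of low GC content, which were -0.87 and -0.10 in A549 and -0.92 and -0.10 in H1792. *RICTOR* in H1792, at -1.07, was below the lower quartile of its class. Of the 4 genes with 60% or more, *AKT1*, *RPTOR* and *EIF4EBP1* were between -0.04 and -0.01 in A549, all below the lower quartile of 0.08 for their class, while *TSC2* at 0.19 was between the quartiles. In H1792 *EIF4EBP1* (0.30), *RPTOR* (0.12) and *TSC2* (0.06) lay between the quartiles of 0.0068 and 0.53 and *AKT1* was below them. Over the 9 genes Spearman's rho between GC content and log2 fold change was 0.85 in A549 and 0.65 in H1792, given as a description of genes that share their libraries.

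**Figure D3:**
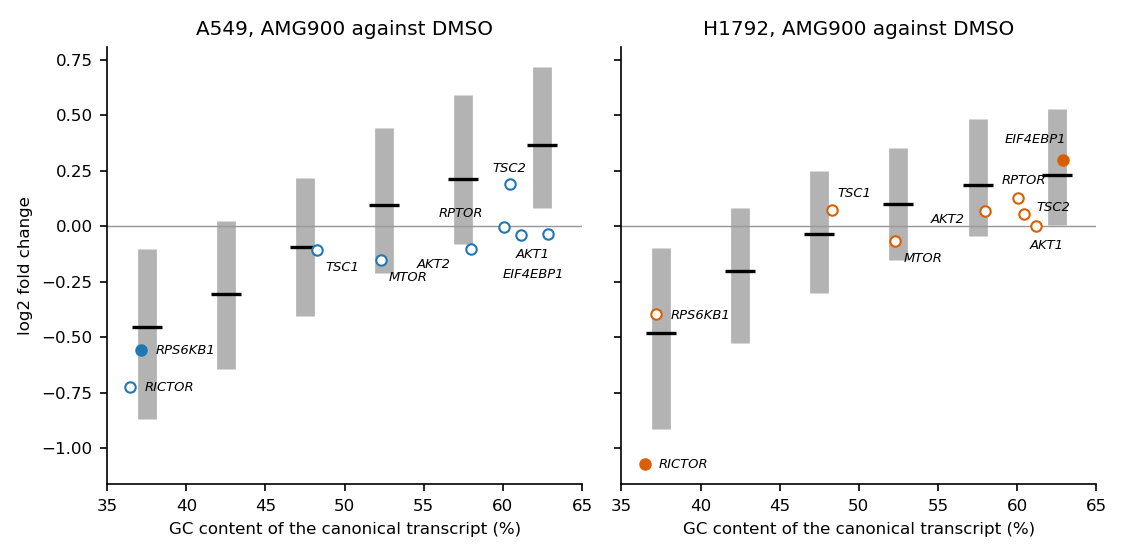
Log2 fold change with AMG900 (vertical axis) against the GC content of the canonical transcript (horizontal axis) in A549 (left) and H1792 (right); grey bars span the quartiles and black dashes mark the medians of all genes tested in classes of GC content, circles are the 9 genes, and filled circles passed the FDR threshold of 0.01. Medians rise from -0.45 to 0.37 in A549 and from -0.48 to 0.23 in H1792, and *RICTOR* in H1792 lies below the bar of its class.

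After the correction, 4 of the 9 genes were called in A549, all lower: *AKT1*, *AKT2*, *RPTOR* and *EIF4EBP1*. Of all 12791 genes in that fit 33% were called, 14.1% higher and 18.9% lower. In H1792 there were again 4, all lower: *AKT1*, *AKT2*, *RICTOR* and *TSC2*. There 38.2% of 14376 genes were called, 14.8% higher and 23.4% lower. Without the correction 1 was lower in A549, and 1 was higher and 1 lower in H1792. The median log2 fold change of the 9 genes with the correction was -0.27 in A549 and -0.20 in H1792, beside -0.03 and -0.04 for all genes. Whether the relation with GC content arose in the cells or in the libraries was not tested.

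A difference between the lines in the effect of AMG900 was then tested with an interaction term over all 14 libraries. It passed the threshold for 0 of the 9 genes with edgeR and for 0 with DESeq2, where 14.5% of all 14769 genes tested passed with edgeR. At an unadjusted p under 0.05 there was 1 gene with each tool, *TSC2* with edgeR and *EIF4EBP1* with DESeq2. For *TSC2* the change in H1792 minus that in A549 was -0.21 ± 0.10 on the log2 scale (95% interval -0.42 to -0.0033, edgeR adjusted p = 0.133). For *RICTOR*, called in H1792 and not in A549, the difference was -0.47 ± 0.48 with an interval of -1.48 to 0.54 (edgeR adjusted p = 0.516), so these data do not show that its change differed between the lines. For *EIF4EBP1* the difference was 0.25 ± 0.14 (interval -0.04 to 0.55, edgeR adjusted p = 0.202), and with the GC correction it was 0.35 ± 0.09, which passed. For *RPS6KB1* it was 0.09 ± 0.21 (interval -0.34 to 0.52, edgeR adjusted p = 0.802). The median of this difference over all genes was -0.10.

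The lines were also compared with DMSO alone, as a contrast in the same fit. Of the 9 genes 6 passed the threshold, where 66.1% of all 14769 genes tested did, 3 of them higher and 3 lower in H1792, beside 34.2% and 31.9% of all genes. Scaled by total counts, 1 was called higher and 4 lower. Libraries of the lines did not overlap for *AKT1*, *TSC2*, *RICTOR* and *RPS6KB1*, 4 of 9 genes beside 68.3% of all genes (36.3% with H1792 higher and 32% with it lower). Line, medium and depth cannot be told apart in this comparison. CPM here were scaled over both lines together and so differ a little from those above.

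*RICTOR* differed most between the lines. It was at 5.68, 6.67 and 6.91 CPM in H1792 and at 4.65, 2.67, 0.865 and 1.73 CPM in A549, with every H1792 library above every A549 library. Its log2 difference, H1792 minus A549, was 1.59 ± 0.33 (95% interval 0.91 to 2.27, n = 3 and 4, edgeR adjusted p = 0.000223). *RPS6KB1* went the other way, at 9.0, 12.4 and 11.1 CPM in H1792 and 16.2, 21.3, 15.3 and 19.7 CPM in A549. It was 40.7% lower in H1792, a log2 difference of -0.75 ± 0.15 (n = 3 and 4, edgeR adjusted p = 0.000127). Both genes passed the threshold in all 14 fits that left out 1 library, and they also passed with the GC correction, at 1.49 and -0.81.

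Smaller differences were seen in 4 other genes. *TSC1* was lower in H1792, with a log2 difference of -0.45 ± 0.12 (edgeR adjusted p = 0.00293), and so was *AKT2*, with -0.29 ± 0.08 (edgeR adjusted p = 0.00378), each with 1 A549 library, DMSO replicate 1, below all H1792 libraries and the others above them. *EIF4EBP1* was higher in H1792 by 0.34 ± 0.10 (edgeR adjusted p = 0.00407) and *AKT1* by 0.20 ± 0.06 (edgeR adjusted p = 0.00992). Without A549 DMSO replicate 1 the differences were -0.56 for *TSC1*, -0.37 for *AKT2*, 0.46 for *EIF4EBP1* and 0.15 for *AKT1*. *AKT1* was then no longer called, and it was called in 5 of the 14 fits that left out 1 library. With the GC correction *EIF4EBP1* was at 0.11 and *AKT1* at -0.01, neither of them called, and *EIF4EBP1* turned to -0.26 when transcript length was added to the correction. *MTOR* (-0.10 ± 0.10), *RPTOR* (-0.13 ± 0.08) and *TSC2* (0.13 ± 0.07) did not pass. When the fit held only the 7 DMSO libraries, 3 of the 9 genes were called, beside 62.2% of all 14011 genes tested.

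Levels can be set against each other only per length, and CPM per kilobase of exon were used for this. These levels were not corrected for GC content, and its part in the order of the genes was not tested. *EIF4EBP1* stood highest in DMSO-treated cells, at 281 ± 45.8 in A549 (SD, n = 4) and 355 ± 28.2 in H1792 (SD, n = 3). *AKT1* followed at 19.2 ± 1.34 and 22.1 ± 0.91, then *AKT2* at 17.1 ± 2.29 and 14.1 ± 0.050, and *RPTOR* at 10.9 ± 0.76 and 9.95 ± 0.39. *MTOR* (5.45 ± 0.78 and 5.14 ± 0.66) and *TSC2* (4.32 ± 0.19 and 4.73 ± 0.23) were neighbours whose libraries overlapped in both lines. *RPS6KB1* (2.35 ± 0.37 and 1.41 ± 0.22) and *TSC1* (1.64 ± 0.37 and 1.23 ± 0.067) came next and overlapped in H1792. *RICTOR* was lowest, at 0.18 ± 0.12 in A549 and 0.48 ± 0.049 in H1792. *AKT1* and *AKT2* overlapped in A549 but not in H1792. The order of *AKT1* and *AKT2*, of *MTOR* and *TSC2* and of *RPS6KB1* and *TSC1* turned round in both lines when the longest transcript was used in place of all exons, while *EIF4EBP1*, *RPTOR* and *RICTOR* kept their places. With the length of the canonical transcript *AKT1* was again above *AKT2* (71.1 and 51.9 in A549), and in H1792 the means of *TSC2* (15.14) and *RPTOR* (14.99) changed places.

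**Figure D4:**
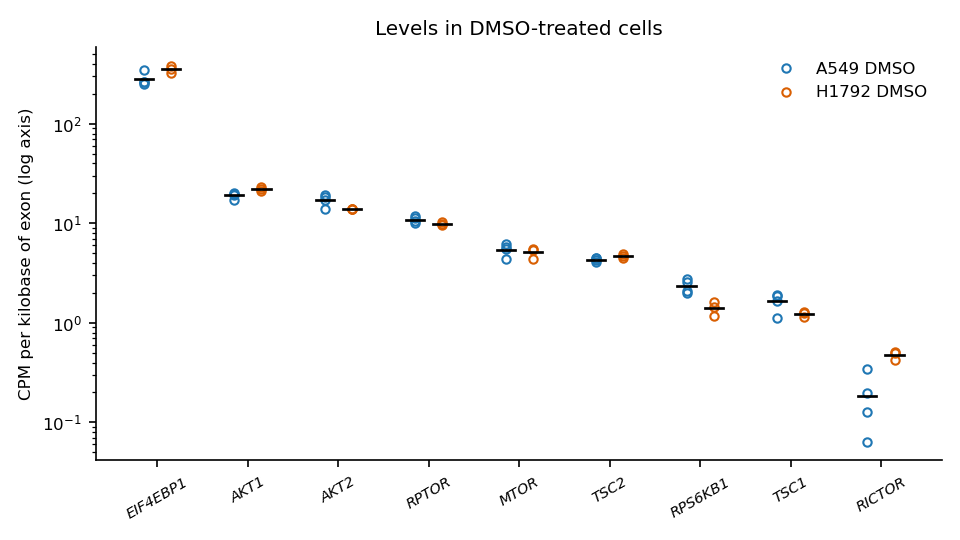
CPM per kilobase of exon of the 9 genes (vertical axis, log scale) in each DMSO library of A549 (blue) and H1792 (orange), with dashes for the group means. *EIF4EBP1* is highest at means of 281 and 355, and *RICTOR* is lowest at 0.18 and 0.48.

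Genes with a pattern like that of *MTOR* and *EIF4EBP1* were sought among 10507 genes whose mean count per library was 100 or more, by the root mean square difference in log2 CPM over the 14 libraries after each gene was centred on its DMSO mean in each line. The nearest to *MTOR* were *HNRNPK* (0.0641), *SEPN1* (0.0678) and *TMEM43* (0.0714). The nearest to *EIF4EBP1* were *DVL1* (0.042), *SH3GL1* (0.0554) and *BCAR1* (0.0564).

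Around the 9 genes, 100 other genes of PI3K, AKT and mTOR signaling were listed by role, of which 96 were tested in A549 and 99 in H1792. In A549, 16 passed the threshold as higher and 11 as lower, and in H1792, 17 as higher and 23 as lower. Their median log2 fold change was 0.02 in A549 and -0.06 in H1792. Beside these shares, 17.2% of all genes were called higher and 17.8% lower in A549, and 16.2% and 18.8% in H1792. Scaled by total counts, 14 were higher and 24 lower in A549. Corrected for GC, the calls were 9 higher and 20 lower in A549 and 8 higher and 32 lower in H1792. The counts also moved with single libraries: 6 were higher and 13 lower in H1792 without AMG900 replicate 1 and likewise without AMG900 replicate 2, 9 were higher and 12 lower without DMSO replicate 3, and in A549 20 were lower without DMSO replicate 1 and 7 without AMG900 replicate 3. Of the 97 tested for the interaction of line and treatment, 2 passed with a higher and 13 with a lower change in H1792. Beside them, 5.37% and 9.17% of all genes passed. With the size factors of DESeq2 there were 3 and 7, beside 1012 and 1033 of all 14769 genes tested.

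**Figure D5:**
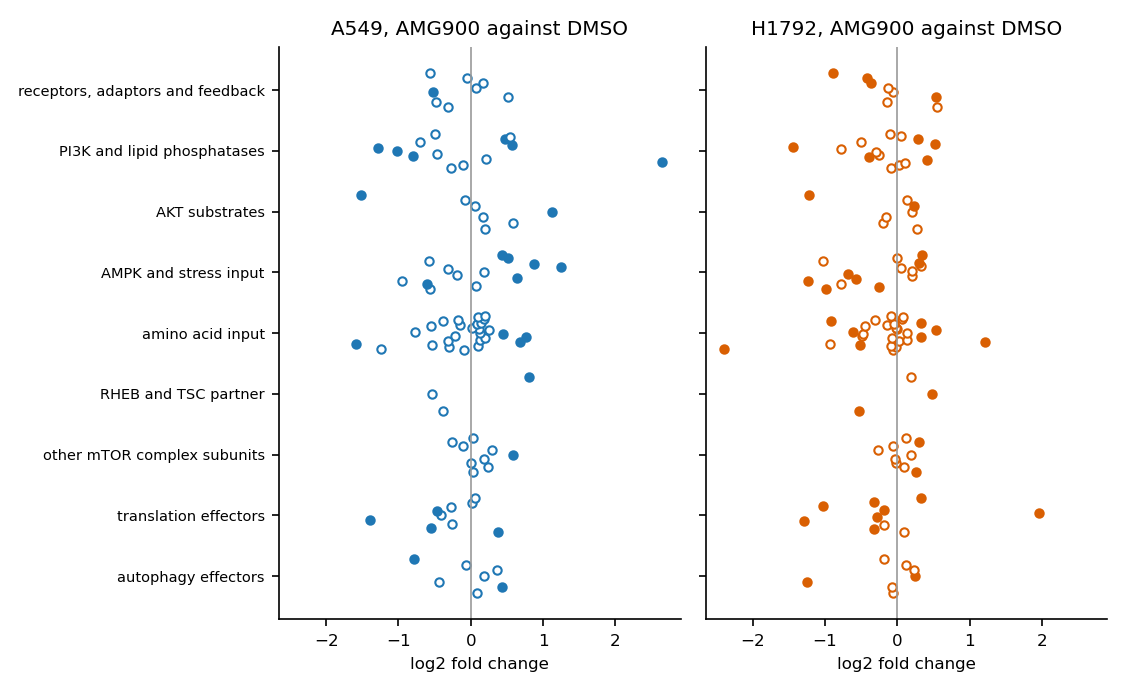
Log2 fold change with AMG900 (horizontal axis) of each of the other pathway genes tested, in rows by role, in A549 (left) and H1792 (right); filled points passed the FDR threshold of 0.01. The changes furthest from 0 are *INPP5D* at 2.65 in A549 and *C7orf60* at -2.40 in H1792.

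Downstream of mTOR complex 1 lie genes of translation. Of 9 tested in A549, 1 was called higher and 3 lower, and of 10 tested in H1792, 2 were called higher and 6 lower. Here and for each role below, the shares of all genes are 17.2% higher and 17.8% lower in A549. In H1792 they are 16.2% and 18.8%. The counts by role are small and are given without the GC correction. *EIF4E*, the cap-binding protein that 4E-BP1 holds back, fell in both lines, by 1.40 ± 0.19 on the log2 scale in A549 (edgeR adjusted p = 2.92e-05) and by 1.29 ± 0.17 in H1792 (edgeR adjusted p = 0.000166). *PDCD4*, an inhibitor of the helicase eIF4A, fell by 1.02 ± 0.09 in H1792 (edgeR adjusted p = 1.71e-05) and was at -0.27 in A549, where it did not pass. *EIF4EBP3*, a relative of *EIF4EBP1*, was higher in H1792 at 1.96 ± 0.45 and was not tested in A549. After GC correction, *EIF4E* was at -0.86 in A549 and -0.56 in H1792, and both passed.

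Upstream, the PI3K and lipid phosphatase genes moved both ways, with 3 higher and 3 lower of 13 in A549 and 3 higher and 2 lower of 14 in H1792. *PIK3CB*, which encodes the p110 beta catalytic subunit of PI3K, fell by 1.28 ± 0.30 in A549 and by 1.44 ± 0.16 in H1792. *PHLPP2*, a phosphatase that removes a phosphate from AKT, fell by 1.03 ± 0.19 in A549 and was at -0.30 in H1792, where it did not pass. *INPP5D*, the lipid phosphatase SHIP1 known mainly from blood cells, rose by 2.65 ± 0.35 in A549 and was at 0.11 in H1792, and the difference between the lines passed the test (-2.62, edgeR adjusted p = 0.000274). Of the 8 receptor and adaptor genes 1 was lower in A549, and 1 was higher and 3 lower in H1792. *IRS2*, the insulin receptor substrate, fell by 0.89 ± 0.09 in H1792 and was at -0.56 in A549, where it did not pass. *GRB10*, an adaptor that dampens insulin receptor signaling, fell by 0.52 ± 0.07 in A549 and was at -0.06 in H1792, which did not pass. *GAB2*, a docking protein, rose by 0.54 ± 0.11 in H1792 and was at 0.52 in A549 (edgeR adjusted p = 0.0413). Its interaction of line and treatment was -0.05 and did not pass. Of the 7 AKT substrates, *TBC1D4*, which couples AKT to glucose transporter traffic, fell in both lines, by 1.52 ± 0.18 in A549 and 1.23 ± 0.11 in H1792. *FOXO4*, a transcription factor that AKT keeps out of the nucleus, rose by 1.12 ± 0.18 in A549 and was at 0.20 in H1792, where it did not pass, and here too the difference between the lines passed (-0.99, edgeR adjusted p = 0.000736). *GSK3A* rose by 0.23 ± 0.05 in H1792 and was at 0.05 in A549, where it did not pass.

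Among the inputs from energy and stress, 5 of 13 genes were higher and 1 lower in A549, and 2 of 14 were higher and 5 lower in H1792. *SESN1*, a sestrin that restrains mTOR complex 1, rose by 1.25 ± 0.17 in A549 and was at 0.32 in H1792, where it did not pass. *PRKAA1*, a catalytic subunit of the energy sensor AMPK, fell by 0.61 ± 0.16 in A549 and by 1.23 ± 0.10 in H1792. *CAB39*, a partner of the AMPK-activating kinase LKB1, fell by 0.99 ± 0.08 in H1792 and was at -0.56 in A549, which did not pass. The study reports a nonsense mutation of LKB1 in A549. The interaction of line and treatment passed for 6 of these 14 genes, all with a lower change in H1792 than in A549, beside 9.17% of all genes called lower. That count fell to 2 with the size factors of DESeq2, with scaling by total counts, and without H1792 AMG900 replicate 1, 2 or 3.

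Of the 27 genes that carry amino acid signals to mTOR complex 1, 3 were higher and 1 lower in A549, and 4 were higher and 4 lower in H1792. *C7orf60*, now named *SAMTOR*, a sensor of S-adenosylmethionine, fell by 2.40 ± 0.31 in H1792 and was at -1.24 in A549, which did not pass. Its symbol was not matched to the annotation, so *C7orf60* has no GC-corrected value. *FNIP2*, a partner of folliculin, fell by 1.59 ± 0.39 in A549 and was at -0.93 in H1792 (edgeR adjusted p = 0.0326). *GATSL3*, now named *CASTOR1*, the arginine sensor, rose by 0.68 ± 0.12 in A549 and by 1.22 ± 0.14 in H1792. *RHEB* itself is the direct activator of mTOR complex 1. It fell by 0.53 ± 0.06 in H1792 and was at -0.39 in A549 (edgeR adjusted p = 0.0309). Its relative *RHEBL1* rose by 0.48 ± 0.13 in H1792 and was at -0.53 in A549, which did not pass. *TBC1D7*, the third subunit of the TSC complex, rose by 0.80 ± 0.16 in A549 and was at 0.19 in H1792, which did not pass.

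Of the 9 other subunits and assembly factors of the mTOR complexes, 1 was called higher in A549 and 2 in H1792. *PRR5*, a subunit of mTOR complex 2, rose by 0.58 ± 0.14 in A549 and was at 0.20 in H1792, which did not pass. *AKT1S1*, which encodes the complex 1 inhibitor PRAS40, rose by 0.26 ± 0.05 in H1792 and was at 0.04 in A549. *TTI1*, which helps to assemble the complexes, rose by 0.31 ± 0.07 in H1792 and was at -0.25 in A549. Of the 7 autophagy genes that mTOR complex 1 restrains, 1 was higher and 1 lower in each line. *RB1CC1*, a subunit of the ULK complex, fell by 1.24 ± 0.14 in H1792 and was at -0.44 in A549, which did not pass. *ULK2*, a kinase of that complex, fell by 0.79 ± 0.13 in A549 and was at -0.18 in H1792, which did not pass. *ATG13*, a further subunit, rose by 0.43 ± 0.09 in A549 and was at -0.07 in H1792. Of the called changes named among these pathway genes that had a corrected value, 5 of 15 in A549 were lost with the GC correction. These were *PRKAA1* (then -0.11), *PIK3CB*, *FNIP2*, *GATSL3* and *PRR5* (then 0.09). In H1792, 4 of 16 were lost (*GSK3A*, *RHEBL1*, *AKT1S1* and *GAB2*), and *GSK3A* and *AKT1S1* turned to -0.10 there. Other named changes were called only with the correction, all as lower. In A549 these were *IRS2* (-0.89), *AKT1S1* (-0.42) and *GSK3A* (-0.35), and in H1792 *ATG13* (-0.21) and *GRB10* (-0.18).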

How the data were processed

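Cells of both lines received DMSO or AMG900, and their RNA (RNeasy columns) was read on a NextSeq instrument, giving 14 libraries. The authors deposited whole-number read counts per gene symbol, without normalization, in a table per line. The submitters' processing notes name STAR, HTSeq and hg19 (GRCh37). The annotation, versions and strand setting are not given in the sources used here. Of the H1792 entries, 28 bear dates in place of symbols and were left out, which leaves 26732 genes in both tables.

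Fits were made with edgeR 4.0.16 and limma 3.58.1 under R 4.3.3, and figures with Matplotlib 3.10.9 under Python 3.11.15. Counts were filtered with filterByExpr and scaled by TMM factors. Groups were compared with edgeR (quasi-likelihood) at the study's FDR threshold of 0.01, with p-values adjusted over all genes tested by the method of Benjamini and Hochberg. The interaction and the comparison of lines used 1 fit over 14 libraries. Single genes were also compared by a two-sided exact permutation test of log2 CPM. A prior count of 2 was used for log2 CPM in the GC correction and in the search for genes of like pattern. Positions, lengths and GC content came from GENCODE v44 mapped to GRCh37, to which 23626 of 26786 symbols were matched. The GC correction is a natural spline with 5 degrees of freedom per library. The steps were tested on simulated counts.

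Alternatives were DESeq2 1.42.0 (the study's tool), its size factors, scaling by total counts, no count filter, a minimum of 10 counts per library, GC and length corrections, a block by replicate number, an FDR of 0.05 and leaving out each library. The canonical transcript's length was added after the data were seen. All 9 genes are named. Of each role among the other pathway genes, the 3 with the largest change among those called in either line are named, and for *MTOR* and *EIF4EBP1* the 3 genes most like them. Members and lists were chosen with earlier results of these data known.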

Additional observations from a re-analysis of the deposited data

Results flagged for a closer look

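In A549, 18 groups of 4 libraries (9 genes in 2 treatments) were searched for a library far from the other 3, and 3 were found, where chance alone gives about 1 in 20. *EIF4EBP1* was at 325.7 CPM in DMSO replicate 1 and between 234 and 239 CPM in the other DMSO libraries. *AKT1* was at 204 CPM in AMG900 replicate 1 and between 217 and 219 CPM in the other AMG900 libraries. *TSC1* was at 27.34 CPM in AMG900 replicate 4 and between 28.97 and 29.06 CPM in the others.

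For 15 of the other pathway genes the change with AMG900 differed between the lines by the interaction test at the FDR threshold of 0.01, 2 higher and 13 lower, or 3 and 7 with the size factors of DESeq2. The log2 fold change in H1792 minus that in A549 was -2.62 for *INPP5D*, -1.01 for *SESN1*, -1.0 for *LAMTOR4*, -0.99 for *FOXO4*, -0.83 for *PDCD4*, -0.70 for *PRKAA1* and -0.64 for *SESN2*. It was -0.59 for *STK11*, which encodes the AMPK-activating kinase LKB1, -0.57 for *ATG13*, -0.52 for *LAMTOR2*, -0.51 for *PRKAB1*, -0.40 for *DDIT4* and -0.36 for *EEF2*. The difference was positive for *TTI1* at 0.49 and *GRB10* at 0.38. *STK11* was at 0.51 in A549 and -0.0029 in H1792, and *SESN2* rose in both lines, by 0.87 and 0.31. The study reports an LKB1 nonsense mutation in A549, and the mRNA counts do not show whether that protein works there.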

How the results depend on the processing

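*RICTOR* in A549 rests on 12 to 31 counts per library, and its DMSO libraries range from 0.897 to 4.94 CPM. Scaling, filters and DESeq2 left the calls of the 9 genes with AMG900 as they were, except where given here. At an FDR threshold of 0.05, 2 of the 9 were called in A549 and 3 in H1792, beside 49.1% and 50.4% of all genes.

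With the GC correction, with length added to it, and with the replicate block added to it, 4, 4 and 4 of the 9 genes were called in A549, 4, 3 and 3 in H1792, and 1, 1 and 0 for the interaction. Values that turned direction under these 3 settings, in the same order, were -0.20, -0.12 and -0.20 for *TSC2* in A549, and in H1792 -0.21, -0.12 and -0.21 for *AKT2*, -0.042, -0.11 and -0.043 for *EIF4EBP1*, 0.14, 0.19 and 0.14 for *RPS6KB1*, -0.19, -0.098 and -0.185 for *RPTOR* and -0.26, -0.17 and -0.26 for *TSC2*. Those of the interaction were 0.057, 0.059 and 0.053 for *AKT1*. Between the lines, *AKT1* was at -0.013 and *TSC2* at -0.057 with GC, -0.021 and -0.048 with GC and the block, and with GC and length *EIF4EBP1* was at -0.26 and *MTOR* at 0.21. Other pathway genes called higher numbered 9, 9 and 9 in A549 and 8, 10 and 6 in H1792, and those called lower in A549 20, 20 and 18. For the interaction they were 21 lower with GC and length and 1 higher with GC and the block.

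Values near 0 also turned: *RPTOR* in A549 was at 0.029 with at least 10 counts in every library, 0.00081 with DESeq2, 0.0033 with its size factors and 0.00022 without a filter. *AKT1* in H1792 was at 0.014 with at least 10 counts, and *TSC2* there at -0.0076 when scaled by total counts. The interaction of *AKT1* was 0.042 with DESeq2, 0.041 with its size factors and 0.053 with total counts. Of the other pathway genes, 26 were called lower in A549 at an FDR of 0.05, 20 with DESeq2, 24 with total counts and 18 without a filter. For the interaction, 22 were lower at an FDR of 0.05, 7 with DESeq2 size factors and 8 with total counts, 4 were higher with DESeq2 and 1 without a filter, and at 0.05 the interaction called 3616 of all genes. Of all genes it called 793 with a higher and 1355 with a lower change in H1792, or 1012 and 1033 with DESeq2 size factors and 988 and 1047 with total counts. With the 7 DMSO libraries alone, 3 of the 9 differed between the lines. Median log2 differences of all genes between the lines moved from 0.04 to -0.07 with total counts.

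Leaving out each library in turn, 0 to 1 of the 9 genes were called in A549, 1 to 4 in H1792, 0 to 0 for the interaction and 2 to 6 between the lines. Log2 values that turned ranged from -0.084 to 0.088 for *EIF4EBP1* and -0.041 to 0.037 for *RPTOR* in A549, -0.036 to 0.020 for *AKT1* in H1792, -0.18 to 0.060 for *MTOR* between the lines, and for the interaction -0.064 to 0.0087 for *AKT1*, -0.10 to 0.092 for *MTOR* and -0.043 to 0.20 for *RPS6KB1*. Only 2 of the 9 differed between the lines without A549 DMSO replicate 4, and 3 without A549 DMSO replicate 3 or H1792 DMSO replicate 3. All genes called in H1792 numbered 3235 to 6703, lowest without AMG900 replicate 1 and with 3458 without AMG900 replicate 2. The highest number came without H1792 DMSO replicate 1, beside 5266 with all libraries, and 4 of the 9 genes were then called. Other pathway genes called higher were 6 to 18 in H1792 and 0 to 3 for the interaction. Those called lower were 7 to 20 in A549, 12 to 27 in H1792 and 7 to 18 for the interaction, with 7 without H1792 AMG900 replicate 1 or 2 and 8 without AMG900 replicate 3.

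Replicate numbers did not pair the libraries: same-numbered DMSO and AMG900 libraries had correlations of their deviations between -0.0604 and 0.0425. With the replicate block, 0 of the 9 were called in A549, 2 in H1792, 0 for the interaction and 4 between the lines, and the other pathway genes of the interaction were 0 higher and 6 lower, 1 of them among the energy and stress inputs. The causes were not tested. By length, 30 of 36 levels per kilobase moved beyond 1 SD with the longest or the canonical transcript.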

Other observations

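The ratio of *EIF4EBP1* to *EIF4E* counts within a library does not depend on how libraries are scaled, and it was chosen after the values were seen. In A549 it was 13.1, 12.4, 19.0 and 13.2 with DMSO and 39.9, 32.5, 35.2 and 39.8 with AMG900. In H1792 it was 29.9, 16.9 and 21.4 with DMSO and 86.6, 66.6 and 51.6 with AMG900. Every AMG900 library was above every DMSO library of its line. The mean log2 ratio was higher with AMG900 by 1.37 in A549 (n = 4 and 4) and by 1.59 in H1792 (n = 3 and 3). No p-value is given, since the pair was chosen for its values. Single genes did not overlap for 43.9% of all genes in A549 and 59.7% in H1792, and the share of gene pairs was not counted. The transcripts differ in GC content, 62.9% for *EIF4EBP1* and 34.5% for *EIF4E*, and in the fits corrected for GC content the log2 fold change of *EIF4EBP1* minus that of *EIF4E* was 0.40 in A549 and 0.52 in H1792, beside 1.36 and 1.59 without the correction.

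The ratio of *RPTOR* to *RICTOR* counts was also chosen after the values were seen, so no p-value is given. In H1792 it was 17.9, 14.9 and 15.5 with DMSO and 38.2, 35.3 and 36.5 with AMG900, groups that did not overlap (n = 3 and 3). There the log2 fold change of *RPTOR* minus that of *RICTOR* was 1.197 without and 0.30 with the GC correction. In A549 the ratio was between 26.2 and 127 with DMSO and between 43.4 and 124 with AMG900, and the groups overlapped (n = 4 and 4). The difference of the log2 fold changes in A549 was 0.72 without the GC correction and turned to -0.17 with it.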
